A study of Rattus norvegicus with 100 samples.

Results

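The genes described here build, load and move secretory granules and transport vesicles. They were taken by name from the array annotation, as probe sets (groups of probes for 1 transcript) of a single gene whose symbol starts with Syt, Stx, Vamp, Chg, Scg, Pcsk or Rab followed by a digit, with Snap25 added. The names matched 134 probe sets of 104 genes, out of 12783 single-gene probe sets of 10411 genes on the arrays. A probe set was kept in a tissue when it had a value on at least 15 of the 30 pituitary arrays or 35 of the 70 uterus arrays. That left 86 genes, of which 82 were members in the pituitary, 72 in the uterus and 68 in both. The other 18 genes reached the limit in neither tissue. The choice rests on names and on which arrays had values, counted over EE and control arrays together. At the limit, Rab22a was kept in the pituitary with 15 valued arrays and Rab20 was left out with 13. In the uterus Snap25 was kept with 36 valued arrays, and Scg2 was left out with 29.

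The animals were immature female rats in a uterotrophic assay, a test in which a compound is judged by the response of the juvenile uterus to estrogens. One set of rats received ethinylestradiol (EE), a synthetic estrogen, and a control group was taken at each time. The pituitary was sampled at 4, 8, 24, 48 and 72 h (3 arrays per treatment and time), and the uterus at 2, 4, 8, 24, 28, 48 and 72 h (5 arrays per treatment and time). Strain, dose, route, schedule and the treatment of the controls are not given in the labels, nor is it stated whether each array stands for its own animal, so a p-value reflects the spread among the arrays and no more.

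Endocrine cells pack peptide hormones into dense-core granules at the trans-Golgi network. Granins condense the cargo, prohormone convertases cut it, Rab GTPases and their effectors bring the granule to the plasma membrane, and SNARE proteins fuse the membranes when a synaptotagmin senses calcium. The same Rab and SNARE families run the constitutive traffic that every cell needs, between endoplasmic reticulum, Golgi, endosomes, lysosomes and cell surface. In the anterior pituitary the regulated route releases prolactin, growth hormone and the glycoprotein hormones, and estrogen is known to act on lactotrophs and gonadotrophs there.

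Values were present for 9318 to 10135 probe sets per pituitary array (median intensities 103 to 110) and for 9338 to 10677 per uterus array (94.6 to 108). The number of arrays sets the precision. The tissue labels matched their markers: Prl, Gh1 and Cga had values on all 30 pituitary arrays and 0 uterus arrays, while Hoxa10, Hoxa11 and Emx2 had values on all 70 uterus arrays and 0 pituitary arrays. Pomc, the corticotroph precursor, had a value on only 1 pituitary array. The log2 difference between the 3' and 5' probe sets of β-actin, a sign of RNA length, was 1.23 to 1.86 in pituitary controls and 1.26 to 1.70 with EE. In the uterus it was 0.33 to 1.09 in controls and 0.07 to 0.61 with EE, so EE arrays tended to be lower there. The same difference for GAPDH was −0.23 to 0.02 in pituitary controls and −0.38 to −0.01 with EE. In the uterus it was 0.21 to 0.95 in controls and 0.12 to 0.64 with EE. The tissues thus differed in opposite directions by these 2 control genes. The part of RNA length in the uterus results and in the comparison of tissues was not tested. Since the tissues were profiled whole, fewer cells of a type and less RNA per cell cannot be told apart.

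Membership rests on which arrays had values, so which members each tissue held follows from that rule. It gave 14 members in the pituitary only and 4 in the uterus only. Among the former, Chga, Pcsk2, Rab11fip4, Rab3b, Rab3c, Syt13 and Syt17 were valued on 0 uterus arrays. The uterus-only members, Pcsk7, Rab20, Rab23 and Rab3il1, had values on 1 to 13 pituitary arrays. The share of all genes valued in pituitary alone was not counted, so these blanks do not set the members apart. Of the 65 members that could be compared between pituitary and uterus controls, 31 were higher in pituitary, against 47.6% of all genes tested, and 21 were lower, against 38.9%. The members' share that was higher, 31 of 65, therefore lay at the background, as the 2 tissues differ in most genes. All differences are on the log2(intensity + 30.4) scale, which understates the change of dim probe sets, and the threshold for a call was an adjusted p of 0.05.

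All 3 granins that could be compared were higher in pituitary controls. Chgb (chromogranin B, a granule matrix protein) was higher by 5.37 (SE 0.06, adjusted p = 4.34e-61), with median intensities of 2153 in pituitary and 20.66 in uterus, where 23 of 35 control arrays had a value. Scg5, also called 7B2, the chaperone of the convertase Pcsk2, was higher by 5.16 (adjusted p = 4.08e-85). Scg3, which binds chromogranin A on the granule membrane, was higher by 4.42 (adjusted p = 1.75e-84), with medians of 1023 and 19.08. The convertase inhibitor Pcsk1n (proSAAS) followed at 4.33 (adjusted p = 1.21e-57). The uterus values of these 4 genes lie near or below the pseudocount of 30.4, which therefore limits the size of the differences, and no fold is given. The Rab GTPases split, with 17 of 35 higher and 12 lower in pituitary, and the SNAREs with 5 of 14 each way. Rab34 (−1.24, adjusted p = 8.06e-48), Rab31 (−1.12, adjusted p = 1.19e-54) and Rab13 (−0.87), a Rab of epithelial junctions, were among the members lower in pituitary. Among the members compared, granins and Pcsk1n thus showed the widest gaps, while Rab GTPases and SNAREs lay on both sides of 0.

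**Figure D1:**
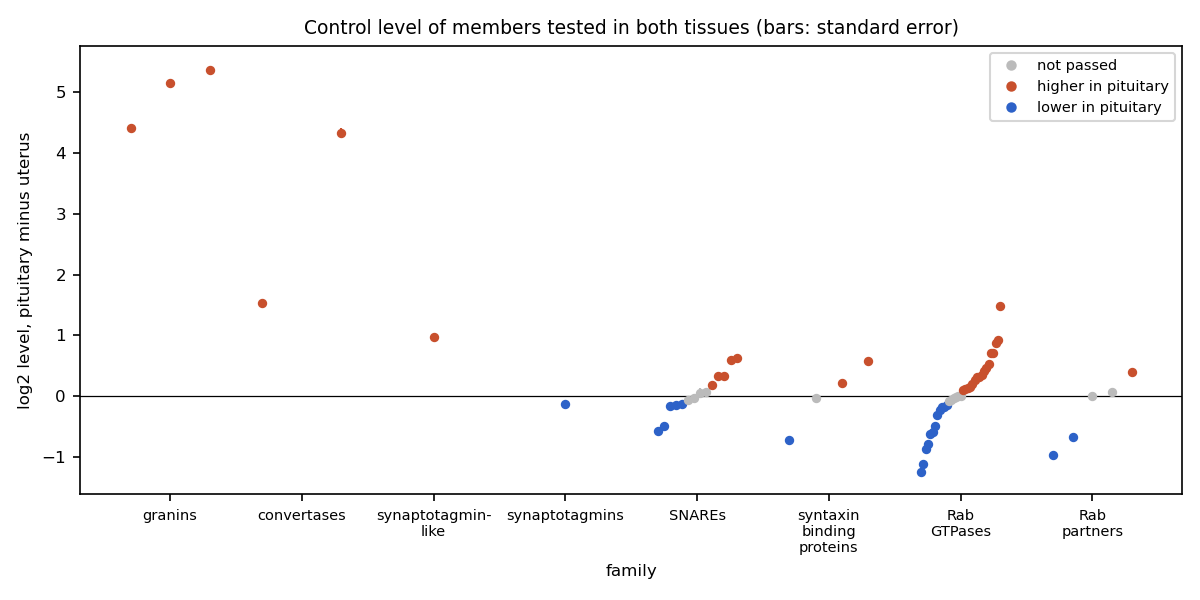
Log2 level in pituitary controls minus uterus controls for each member compared, grouped by family, with standard errors. The 3 granins and Pcsk1n lie above 4, and the Rab GTPases and SNAREs lie on both sides of 0.

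Promoter sequences were at hand for 70 of the 86 members (RefSeq, build GRCr8, 300 bases from 250 before to 50 after the gene start). The cyclic AMP response element TGACGTCA, which reads the same on both strands, occurred in 4 of these 70 promoters (5.71%) and in 612 of all 33469 promoters (1.83%). The larger set was not limited to genes valued on the arrays, as the members were. It is therefore an unlike background, and whether the shares differ was not tested. The estrogen response element, GGTCA and TGACC held 3 bases apart, occurred in 0 of 70 and in 9 of 33469 (0.0269%), searched on both strands. The 4 windows of 60 bases that hold the first motif are shown to place the element beside the values of their genes given further on, with the motif in capitals. The motif begins 60 bases before the start in Rab25, 123 in Scg2, 71 in Vamp1 and 50 in Rab11fip3. A match of letters is a description and does not show a bound site.
Scg2, chr9:88256950-88257009, minus strand: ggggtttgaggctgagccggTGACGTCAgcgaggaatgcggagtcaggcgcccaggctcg
Rab25, chr2:176304242-176304301, minus strand: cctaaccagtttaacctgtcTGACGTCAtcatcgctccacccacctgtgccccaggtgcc
Vamp1, chr4:159698803-159698862, plus strand: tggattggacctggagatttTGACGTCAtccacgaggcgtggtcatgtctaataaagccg
Rab11fip3, chr10:15591184-15591243, minus strand: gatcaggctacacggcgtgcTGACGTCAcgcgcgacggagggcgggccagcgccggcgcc

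In the pituitary few members passed the threshold for an EE effect. Of 82 members tested, 9 passed at 1 time and 0 at more than 1, which is 9 calls in 399 tests. At 4 h 2 of 79 members were higher, against 1.05% of all genes, and 2 were lower, against 0.439%. At 8 h 0 of 80 were higher (background 1.73%) and 1 was lower (background 1.82%). At 24 h 0 of 81 passed, with a background of 0.0292% higher and 0.0583% lower and 5 members at an unadjusted p under 0.05. At 48 h 0 of 81 passed as well, with a background of 0.219% and 0.102% and 7 members at an unadjusted p under 0.05. At 72 h 1 of 78 was higher (background 1.76%) and 3 were lower (background 0.963%). These shares rest on 1 to 3 genes each. At 4, 8 and 72 h, 9, 17 and 13 members had an unadjusted p under 0.05. The share of all genes at that limit was not counted at any time. With so few arrays per group, the groups of a gene can also separate by chance. The share of genes whose groups did not overlap was not counted. A lack of overlap without a call is therefore a description and not evidence of a response. The median log2 difference of the members lay between −0.05 and −0.02 at 4 and 8 h and was −0.04 at 72 h, beside −0.01, 0.00 and −0.01 for all genes.

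**Figure D2:**
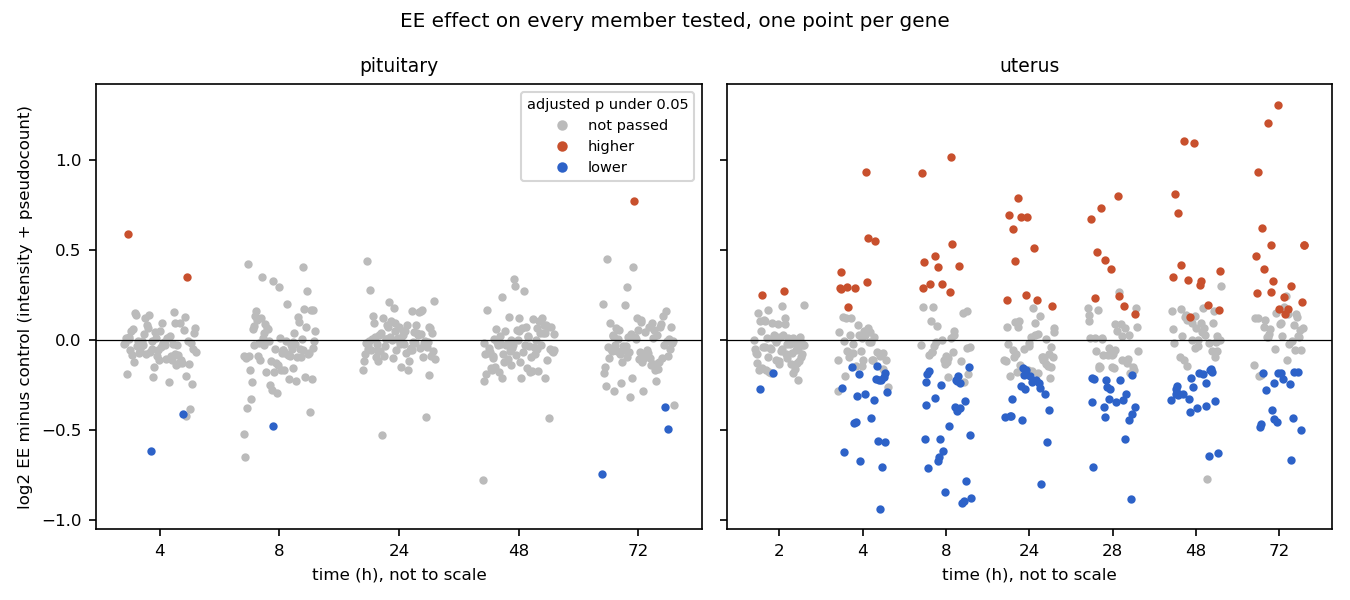
Log2 EE minus control of every member tested, by time, in pituitary and uterus, coloured by whether it passed. In pituitary 9 points passed in all, while in uterus 30 to 39 members passed at each time from 4 h on.

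The late falls in the pituitary were those of Chga and of 2 proteins of granule docking and fusion, Sytl4 and Syt4. Chga encodes chromogranin A, a calcium-binding granin that drives granule formation and is the source of several peptides. At 72 h its control intensities were 1483, 1300 and 1284 and its EE intensities 990.3, 585.1 and 866.1. All EE arrays lay below all control arrays, and Chga fell by 0.74 (SE 0.18, 1.67-fold, adjusted p = 0.0199). At 48 h the controls were close together at 1701, 1735 and 1718, and the EE arrays read 1049, 979.1 and 939.3. The groups again did not overlap, but the difference of −0.78 (SE 0.18) had an adjusted p of 0.0516, which ranged from 0.00155 to 0.202 over the alternatives. At 4 h the groups overlapped, with controls of 1796, 1600 and 1837 against EE values of 1711, 1731 and 1699 (−0.02). At 8 h the controls read 1799, 1743 and 2077, and the EE arrays 1435, 1756 and 845.8 (−0.53, adjusted p = 0.0949). Here 1 EE array was far below the others and another lay within the controls. At 24 h the groups overlapped at 1791, 1310 and 1619 against 1677, 1184 and 1342 (−0.17).

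The 72 h call for Chga was lost without control array 73 (adjusted p = 0.094), control array 76 (0.0525) or EE array 82 (0.15). Without EE array 33, the array at 1756, Chga passed at 8 h too (−0.74, adjusted p = 0.0118). In that refit Pcsk1n, with controls of 1739, 2374 and 1506 and EE values of 1229, 1830 and 690.5, passed as well (−0.97, adjusted p = 0.00601). On all arrays Pcsk1n did not pass, its groups overlapping (−0.65, adjusted p = 0.0898). The count of members passing at 8 h was 4 without EE array 33, 0 without EE array 34, and 2 without control array 28 or 30.

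The other granins did not pass at any time. Chgb read 1940, 2074 and 1997 in 72 h controls and 2305, 2362 and 2251 with EE, a small gap without overlap in the direction opposite to Chga (0.20, adjusted p = 0.271). Scg5 read 2328, 2375 and 2293 in 48 h controls and 2184, 1962 and 2030 with EE, all EE arrays lower (−0.18, adjusted p = 0.376). Scg2 (secretogranin II, the precursor of secretoneurin), whose promoter window is printed above, moved by −0.17 at 24 h (adjusted p = 0.83). Scg3 moved by −0.23 at 4 h (adjusted p = 0.477). Chga was thus the only granin of 5 with a call, while the difference between it and the other granins was not tested. Pcsk2, the convertase that finishes prohormone cleavage in granules, moved by −0.19 to −0.02 and overlapped at every time. Snap25, the plasma membrane SNARE of regulated secretion, moved by −0.14 at 72 h (adjusted p = 0.523), and 0 of 16 SNAREs passed at any time.

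Beside Chga, Sytl4 and Syt4 fell at 72 h. Sytl4, or granuphilin, is a Rab27a effector that docks granules at the plasma membrane. Its controls read 557.5, 476.4 and 479.7 and its EE arrays 353.6, 317.2 and 378.5. EE lay wholly below control, and the fall was 0.49 in log2 (SE 0.12, 1.41-fold, adjusted p = 0.0246). Its EE arrays were also all below control at 4 h (−0.39, adjusted p = 0.129) and 8 h (−0.40, adjusted p = 0.0662), without passing. Syt4, a synaptotagmin of dense-core granules whose first C2 domain binds calcium poorly, read 816.4, 679 and 789 in controls and 582.3, 614.7 and 546.6 with EE. The groups were separate, and Syt4 fell by 0.37 (SE 0.09, 1.29-fold, adjusted p = 0.0236). A second probe set of Syt4 gave −0.39 (adjusted p = 0.0745). At 24 h Syt4 read 730.2, 845.5 and 770 in controls against 631.4, 562.5 and 528.2 with EE, again without overlap (−0.43, adjusted p = 0.0679). Rab27a, the GTPase that recruits Sytl4, did not pass at 24 h (−0.53, adjusted p = 0.173). Its EE arrays read 120.7, 113.9 and 130.2 against 202.9, 178.6 and 184.3 in controls. Whether Rab27a and Sytl4 moved together was not tested.

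Rab3d was the 1 member that rose at 72 h. It belongs to the Rab3 group of GTPases on secretory granules and is best known from exocrine cells. One control array was blank and the others read 65.54 and 66.1, while the EE arrays read 138.6, 131.7 and 130.9. The EE values stood close together at about the same distance above both controls, a rise of 0.77 (SE 0.18, 1.71-fold, adjusted p = 0.0152) that rests on 2 control values. Of the 4 calls at 72 h, 0 held without control array 76, where Rab3d had too few control values to be tested. The count was 1 without control array 73 or EE array 81, and 2 without EE array 82. Sytl4 was lost without any of these 4 arrays (adjusted p 0.0603 to 0.135). Syt4 was lost without control array 73 (0.131), control array 76 (0.11), EE array 81 (0.0771) or EE array 83 (0.125). Rab3d had an adjusted p of 0.0585 without EE array 81, and Syt4 one of 0.0536 in a fit of only the 2 groups.

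**Figure D3:**
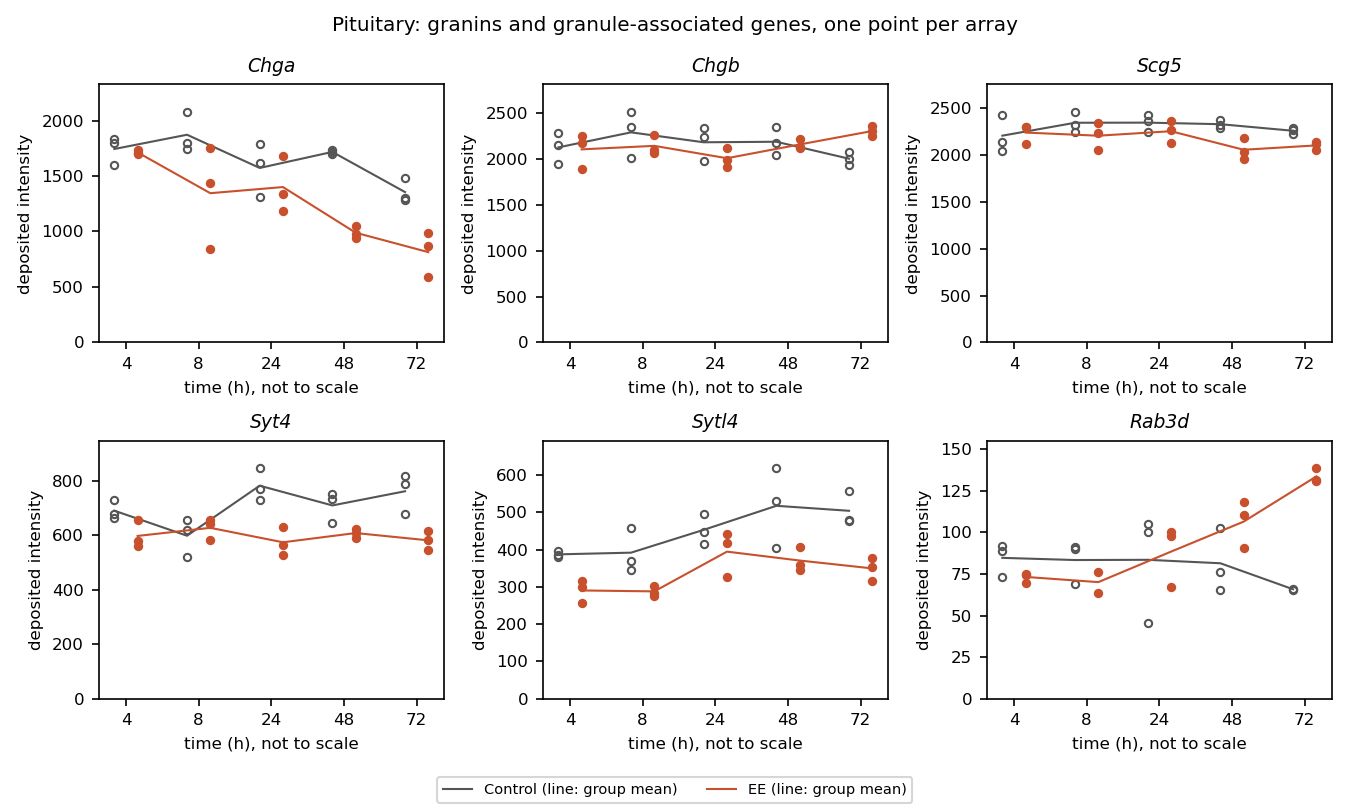
Pituitary intensity of Chga, Chgb, Scg5, Syt4, Sytl4 and Rab3d on every array by time, with controls as open grey points, EE as filled orange points and lines through the group means. At 72 h EE lies below control for Chga, Sytl4 and Syt4 and above it for Rab3d, with no overlap.

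A few markers of hormone cells fell as well. Of the 16 listed hormone-cell genes 13 were tested, and 2, 2, 1, 1 and 2 of them were lower at 4, 8, 24, 48 and 72 h with 0 higher. The background of falls was 0.439%, 1.82%, 0.0583%, 0.102% and 0.963%. These times include 24 and 48 h, when 0 members passed. The median log2 difference of the 13 was −0.02 at 72 h. Gnrhr, the gonadotroph receptor for gonadotropin-releasing hormone, fell by 0.86 at 24 h (adjusted p = 0.036), by 1.22 at 48 h (9.16e-04) and by 1.57 at 72 h (6.19e-06). Lhb, the β subunit of luteinising hormone, moved by −0.59 at 72 h (adjusted p = 0.055), and Prl, Gh1, Cga and Tshb did not pass. The summed intensity of the 14 hormone-cell genes on the arrays was 26382.6 to 27397.9 in 72 h controls and 25662.3 to 26212.2 with EE, and Pomc was blank in nearly all arrays. Of the neural lobe and glia list, 0 passed at any time, and its summed intensity at 72 h was 696.2 to 1085 in controls and 726.3 to 807.6 with EE. The median log2 difference of its 6 genes tested was −0.31 at 72 h and between −0.10 and −0.01 at the other times. Of 9 neuronal markers tested, 1 was lower at 8 h and 1 at 72 h, with 0 higher. Among the gonadotroph genes named here, only Gnrhr passed at 72 h. The part of hormone cells, neural lobe and glia, or neurons in the falls of Chga, Sytl4 and Syt4 was not tested.

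The early calls in the pituitary were other members. At 4 h Pcsk6 (PACE4), a convertase of the constitutive route that cuts precursors of the TGF-β family, rose. Its controls read 235.3, 219 and 243.6 and its EE arrays 366.4, 331.4 and 398.6. All EE values were well above all controls, a rise of 0.59 (SE 0.14, adjusted p = 0.0245). At 72 h Pcsk6 was again higher on each EE array, at 373.6, 361.8 and 444.2 against 318, 266.6 and 256.4, but did not pass (0.45, adjusted p = 0.0846). Syt6 rose by 0.35 at 4 h (SE 0.08, adjusted p = 0.0251), from 20.5, 16.84 and 22.6 to 30.41, 31.29 and 40.12. These groups did not overlap, but the values lie around the 10th percentile of all intensities, where the array resolves little.

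Rab38 and Stxbp6 fell at 4 h. Rab38 is a GTPase of lysosome-related organelles, known from pigment granules and lung lamellar bodies. It read 140.9, 117.4 and 164.3 in controls and 88.76, 79.17 and 74.58 with EE, and fell by 0.62 (SE 0.11, 1.53-fold, adjusted p = 0.00287). Stxbp6 (amisyn) binds syntaxin and holds back SNARE assembly. It read 84.9, 81.89 and 96.9 in controls and 54.2, 62 and 59.01 with EE, and fell by 0.41 (SE 0.08, 1.33-fold, adjusted p = 0.00514). Neither gene's groups overlapped. At 8 h the 1 call was Rab3b, a Rab3 GTPase that attaches to hormone granules. Its controls read 304.9, 376.8 and 289.1 and its EE arrays 232.6, 239 and 197. EE lay below control throughout, and Rab3b fell by 0.48 (SE 0.12, 1.39-fold, adjusted p = 0.0197).

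Some early calls rest on single arrays. The Pcsk6 call was lost without control array 16 (adjusted p = 0.0806), 17 (0.118) or 18 (0.0534) and without EE array 20 (0.0604) or 23 (0.138), and Syt6 without arrays 16 (0.0803), 17 (0.149) or 23 (0.188). The 4 calls at 4 h became 2 without control array 16 or 17, and Rab3b was lost without control array 28 or EE array 34 (0.126 each). Rab38 and Stxbp6 passed whichever array was left out. A fit of only the 2 groups compared gave adjusted p-values of 0.0628 for Rab38, 0.111 for Stxbp6, 0.208 for Syt6 and 0.186 for Rab3b, and only Pcsk6 passed. Among hormone-cell genes, Pou1f1, the transcription factor of the lactotroph and somatotroph lineage, fell by 1.09 at 4 h (adjusted p = 6.82e-06) and by 0.59 at 8 h (0.00935). Neurod1 fell by 0.57 at 4 h (adjusted p = 0.00735). The summed intensity of the hormone-cell genes at 4 h was 23015.8 to 26510.9 in controls and 22354.8 to 27042.3 with EE, and the part of these markers in the early calls was not tested.

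**Figure D4:**
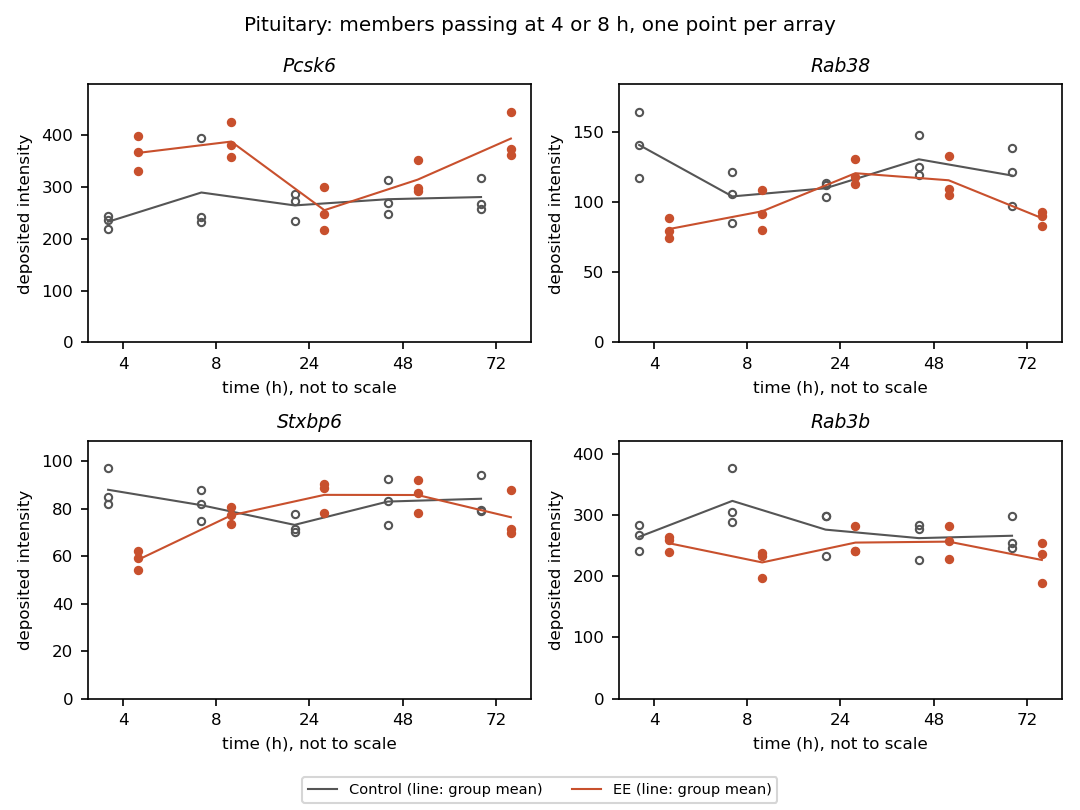
Pituitary intensity of Pcsk6, Rab38, Stxbp6 and Rab3b on every array by time, with controls as open grey points, EE as filled orange points and lines through the group means. EE lies above control for Pcsk6 and below it for Rab38 and Stxbp6 at 4 h, and below it for Rab3b at 8 h.

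Whether a member's EE effect changed over the 5 pituitary times was tested as well, and 0 of 77 passed, against 1.1% of all genes, with 12 at an unadjusted p under 0.05. The smallest adjusted p was that of Stxbp6 (0.0521), followed by Rab27a (0.0981), Rab38 (0.109) and Rab3d (0.144). A count of 1 came with several other settings and without control array 40 or 64 or EE array 44, 68, 69 or 83, and a count of 2 without EE array 33. The calls at single times therefore do not show that these members responded at that time and at no other.

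Other genes of the pathway also stayed mostly still in the pituitary. In the list of granule processing and cargo, 0 of 9 to 11 genes tested passed before 72 h. At 72 h 2 of 11 rose, where 1.76% of all genes were higher. These were Nucb2, the precursor of nesfatin-1 (0.67, adjusted p = 0.00239), and Atp6ap1, an accessory subunit of the proton pump that acidifies granules (0.32, adjusted p = 0.0309). Of the priming and docking genes 1 of 18 fell at 8 h, the vesicle chaperone Dnajc5 (−0.24, adjusted p = 0.0453), where 1.82% of all genes were lower. Of 26 Golgi SNAREs and coats 1 rose at 72 h, Cope, a subunit of the COPI coat (0.40, adjusted p = 0.0194), beside the same 1.76%. These counts rest on 1 or 2 genes each and were not tested against the shares of all genes. None of the 5 exocyst subunits tested passed.

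In the uterus the same families moved widely, as most genes did. At 2 h 2 of 69 members were higher (background 4.01%) and 2 lower (background 2.38%). Only 1 of these 4 passed without EE array 9, 2 without control array 4 or 6 or EE array 12, and 6 passed without EE array 7. At 4 h 10 of 68 were higher (background 23.6%) and 22 lower (background 34.5%). At 8 h 11 of 67 were higher (background 28.7%) and 28 lower (background 35.5%). At 24 h 11 of 69 were higher (background 24.8%) and 19 lower (background 34.4%). At 28 h 10 of 66 were higher (background 28.4%) and 20 lower (background 34.4%). At 48 h 13 of 69 were higher (background 24.2%) and 22 lower (background 33%). At 72 h 18 of 66 were higher (background 23.4%) and 17 lower (background 36.8%). The members' shares of falls were close to or below the background except at 8 h, when 41.8% of members fell. Their shares of rises lay below the background from 4 to 48 h. They were 14.7%, 16.4%, 15.9%, 15.2% and 18.8% at 4, 8, 24, 28 and 48 h, and 27.3% at 72 h. Whether these shares differ from the background was not tested.

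The balance of higher and lower members depended on the scaling at several times. With each array centred on its median the split became 2 higher and 0 lower at 2 h, 14 and 15 at 24 h, 17 and 18 at 48 h and 22 and 11 at 72 h. With quantile normalization it was 2 and 1 at 2 h. The shares of all genes higher or lower under these scalings were not counted. These splits therefore cannot be set beside the backgrounds above. The members' median log2 difference was −0.12 at 8 h beside −0.04 for all genes, and 0.06 at 72 h beside −0.07. Of the 72 uterus members 58 passed at 1 or more times, and 14 at none, among them Pcsk5, Rab5a, Rab27b and Snap25. The share of all genes passing at 1 or more times was not counted. A time with too few values was counted as not passed. Among the 14, Rab22a had values on 28 of 35 control and 11 of 35 EE arrays, and Syt11 on 34 and 18. These blanks were not tested.

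Membrane fusion genes moved from 4 h on in the uterus, where 34.5% of all genes were lower at 4 h and 35.5% at 8 h. Of the SNAREs 9 of 15 fell and 1 rose at 4 h, and 8 of 14 fell and 1 rose at 8 h. With centred arrays 7 fell at each of these times, and with quantile normalization 7 and 9, where the share of all genes was not counted. Of the 4 syntaxin binding proteins 3 fell at both times, or 2 at 4 h under either scaling. No test set these families apart from other genes. Stxbp3 (Munc18c), the partner of Stx4 in constitutive and insulin-regulated exocytosis, read 180.9, 166.4, 147.9, 169.6 and 172.3 in 4 h controls and 77.19, 71.9, 84.39, 73.94 and 57.63 with EE. Every EE array was well under every control, a fall of 0.94 (SE 0.07, 1.92-fold, adjusted p = 3.16e-19). Stxbp3 stayed lower at every later time, by 0.88 at 28 h (adjusted p = 3.99e-18) and by 0.18 at 72 h (0.0184), where the groups overlapped. Stx7, a syntaxin of late endosomes, read 300.7, 317.4, 261.9, 306.8 and 253.5 in 8 h controls and 138.8, 146.5, 132.7, 131.2 and 145.9 with EE. The groups were far apart, and Stx7 fell by 0.91 (SE 0.06, 1.87-fold, adjusted p = 7.65e-20). Its difference shrank to −0.18 at 48 h and it did not pass at 72 h (−0.06, adjusted p = 0.448).

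Stx16, a syntaxin of the trans-Golgi network, moved most at 24 h. It read 185.1, 187, 202.7, 180.7 and 206.6 in controls and 94.21, 90.19, 102.9, 101.3 and 97.98 with EE. There was no overlap, and it fell by 0.80 (SE 0.09, 1.74-fold, adjusted p = 1.76e-11). Stx16 was among the 4 members lower at every time from 4 to 72 h, with Stxbp3, Rab33b (a Golgi GTPase) and Rab5b (an early endosome GTPase). These are 4 of 60 members tested at all 6 times, or 6.67%, beside 11.7% of all genes. With centred arrays only Rab5b was lower at every one of these times, and with quantile normalization Rab5b, Stx16, Stx4 and Rab11b were. Another probe set of Rab5b passed in the same direction at 8 h (−0.38, adjusted p = 2.46e-04), and at the other times it did not pass, with a sign opposite to the one used at 24 and 72 h (0.03 and 0.11). Stx4 itself fell by 0.22 at 4 h (adjusted p = 0.00273) and by 0.44 at 72 h (3.17e-08). Vamp2, the vesicle SNARE of regulated secretion, fell by 0.57 at 4 h (adjusted p = 1.55e-05), 0.37 at 28 h (0.00301), 0.63 at 48 h (6.95e-06) and 0.50 at 72 h (2.18e-04), and did not pass at 8 or 24 h. Vamp1 passed at 4 h (−0.20, adjusted p = 0.023), and at no time with centred arrays or quantile normalization. Its effect did not pass the test between times (adjusted p = 0.725).

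A set of 8 members was lower at 8 h and higher at 72 h: Rab3d, Rab13, Rab29, Rab31, Stx12, Vamp3, Vamp7 and Vamp8. They are 12.7% of the 63 members tested at both times, beside 5.7% of all genes, and whether the shares differ was not tested. The same 8 were found with centred arrays, and all of them but Vamp3 with quantile normalization. Rab3d read 127.1, 136.8, 114.2, 135.8 and 118.4 in 8 h controls and 61.03, 65.38, 55.79 and 46.44 with EE, 1 EE array being blank. All EE values were about as low as each other and under all controls, a fall of 0.84 (1.79-fold, adjusted p = 1.89e-10). At 72 h Rab3d read 88.99, 67.51, 85.12, 72.69 and 98.61 in controls and 263.3, 251.9, 222.7, 231.6 and 272.6 with EE. The order had turned, with every EE array far above control and a rise of 1.31 (SE 0.10, 2.47-fold, adjusted p = 7.42e-18). It had already risen at 24 h (0.68, adjusted p = 2.37e-08) and 48 h (1.10, adjusted p = 1.02e-14).

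Rab13 and Vamp7 followed the same course. Rab13 read 142.1, 138.6, 151.7, 133.4 and 138.6 in 8 h controls and 61.09, 79.31, 81.4, 63.52 and 86.83 with EE, all EE arrays lower (−0.71, SE 0.10, adjusted p = 6.68e-09). By 24 h Rab13 had risen by 0.62 (adjusted p = 4.00e-07), and at 72 h the rise was 0.62 (2.77e-07). Vamp7, a SNARE of late endosomes and lysosomes, read 145.1, 143, 127.3, 137.5 and 123.1 in 8 h controls and 71.09, 101.3, 83.66, 80.62 and 86.1 with EE. EE was below control throughout (−0.53, SE 0.06, adjusted p = 6.67e-11). At 72 h Vamp7 read 143.4, 119.2, 128.6, 146.7 and 123 in controls and 207.2, 226.8, 176.1, 187.1 and 225.1 with EE, all EE arrays higher (0.53, adjusted p = 1.35e-10). Vamp8, which serves exocytosis in epithelial and blood cells, fell by 0.88 at 8 h (adjusted p = 9.14e-06) and rose by 0.53 at 72 h (0.00628), where its groups overlapped. The reverse course, higher at 8 h and lower at 72 h, was seen in 1 member, Rab34, against 7.12% of all genes tested at both times. Another probe set of Rab34 passed at neither time, with the opposite sign at both (−0.09 at 8 h and 0.24 at 72 h).

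Rab25 rose without an early fall. It is an epithelial member of the Rab11 group that recycles membrane to the apical surface, and its promoter window is printed above. At 72 h it read 82.86, 77.66, 84.79, 71.42 and 75.97 in controls and 217.2, 213.3, 223.6, 201.2 and 251 with EE. The groups were far apart, and the rise was 1.21 (SE 0.09, 2.31-fold, adjusted p = 2.56e-18). Rab25 had passed at 8 h (0.46, adjusted p = 7.06e-06) and at each time after it, with 1.11 at 48 h (1.33e-16). Rab11fip3, an effector of the Rab11 group with the same promoter letters, fell at 8 h (−0.23, adjusted p = 0.0233) and at each later time, by 0.48 at 72 h (9.10e-06).

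Several epithelial and leukocyte markers rose in the uterus at the same late times. At 72 h Krt8 rose by 2.29 (adjusted p = 9.57e-25), Krt19 by 2.93 (3.65e-17) and Cdh1 by 0.67 (5.84e-07). They belong to a list of 14 uterus markers that also holds receptors, Hox genes and smooth muscle genes. Of the 14, 8 rose and 3 fell at 72 h, beside 23.4% and 36.8% of all genes. Their summed intensity was 9604.7 to 12455.4 in controls and 13864.9 to 17583.3 with EE. Over all uterus arrays the highest medians in the list were those of Myh11 (2190), Acta2 (2113) and Tagln (1913), all smooth muscle genes. The sum is therefore not a measure of epithelium. Of 5 leukocyte genes tested 4 rose at 72 h, where 23.4% of all genes were higher. Summed intensities over the 8 leukocyte genes on the arrays were 1171.1 to 1566.3 in controls and 3121.6 to 4799.7 with EE. The part of these cells in the late rises of Rab25, Rab3d, Rab13, Vamp7 and Vamp8 was not tested.

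**Figure D5:**
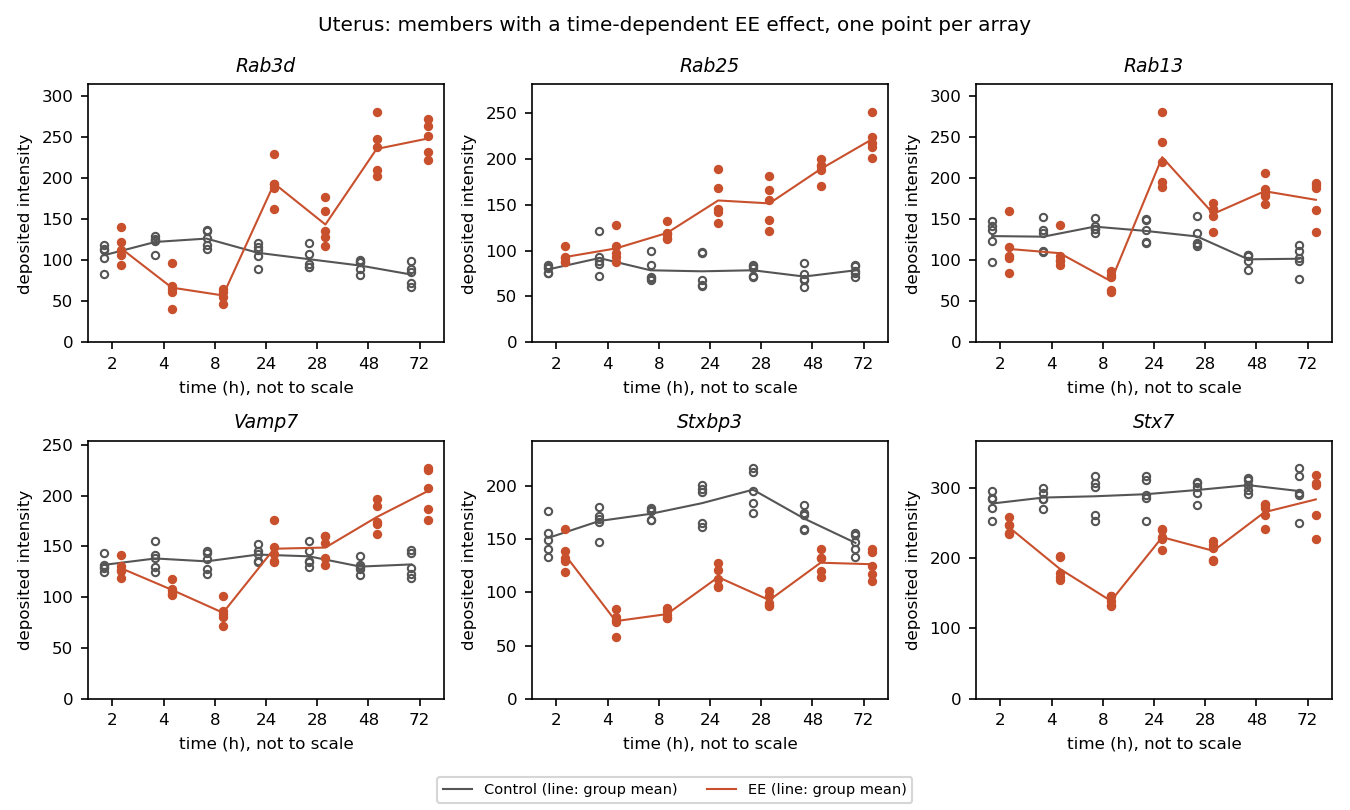
Uterus intensity of Rab3d, Rab25, Rab13, Vamp7, Stxbp3 and Stx7 on every array by time, with controls as open grey points, EE as filled orange points and lines through the group means. Rab3d, Rab13 and Vamp7 lie below control at 8 h and above it at 72 h, Rab25 rises from 8 h on, and Stxbp3 and Stx7 fall early.

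Some Rab GTPases were higher from 4 h on. Rab1a, which brings vesicles from endoplasmic reticulum to Golgi, rose by 0.29 (adjusted p = 1.14e-05) at 4 h and by 0.49 at 28 h (2.47e-11). Rab2a, which acts between Golgi and endoplasmic reticulum, rose most at 24 h (0.68, adjusted p = 2.15e-13), whereas its paralog Rab2b fell from 8 h on, by 0.65 at 8 h (8.45e-14) and by 0.39 at 72 h (4.88e-07). Rab5if, a protein named for its interaction with Rab5, read 290.6, 284.1, 334.5, 308 and 287.3 in 8 h controls and 577.4, 628.4, 687.7, 658.8 and 643.4 with EE. Each EE array was far above all controls, a rise of 1.02 (SE 0.08, 2.02-fold, adjusted p = 1.32e-18). These 3 and Rab11a were the 4 members higher at every time from 4 to 72 h, also with centred arrays, while quantile normalization left Rab11a and Rab2a. That is 4 of the 60 members tested at all of these times, or 6.67%, beside 5.03% of all genes. The Rab11a call depends on the probe set. The one used rose by 0.38 to 0.93, while the other passed at 4 h (0.31, adjusted p = 6.20e-04) and 28 h (0.22, adjusted p = 0.011) and lay between −0.17 and −0.01 at the other times. Over all uterus members, 46 values came from other probe sets of a gene that had passed. Among these, 15 passed in the direction of the probe set used and 4 in the other direction. Of the values that did not pass, 16 had the same sign and 11 the other. Cross-hybridisation between near-identical Rab GTPases was not tested.

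Pcsk6 rose in the uterus too. At 8 h it read 67.73, 60.93, 55.96, 71.02 and 58.35 in controls and 147.1, 123.2, 152.8, 175.7 and 138.9 with EE. All EE arrays were above all controls, a rise of 0.93 (SE 0.09, 1.90-fold, adjusted p = 1.42e-13), and it passed again at 72 h (0.47, adjusted p = 1.68e-05).

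Granins were dim in the uterus, and blanks were left out of the fits. Scg5 had values on 35 of 35 control and 26 of 35 EE arrays, Scg3 on 35 and 31, and Chgb on 23 and 21. Their EE medians were 22.29, 13.8 and 13.52, below the pseudocount of 30.4. The number tested therefore changed between times, and the part of these blanks in the falls was not tested. None of the 2 tested at 2 h or the 3 tested at 4 h passed. At 8 h 2 of 2 fell, at 24 h 2 of 3, at 28 h 1 of 1, at 48 h 3 of 3 and at 72 h 1 of 2, where 33% to 36.8% of all genes were lower. With centred arrays 2 of 3 fell at 48 h and 0 of 2 at 72 h, and with quantile normalization 2 of 3 at 48 h. The share of all genes lower under these scalings was not counted. Scg5 fell by 0.39 at 8 h (adjusted p = 1.30e-04) and by 0.37 at 48 h (0.00222). Scg3 fell by 0.34 at 28 h (adjusted p = 2.03e-04). Chgb passed at 48 h (−0.34, adjusted p = 0.0498), and that call was lost under 11 alternatives, 8 of which left out 1 array (the highest adjusted p was 0.142, without EE array 69). Scg3 was lost without control array 25 at 8 h (adjusted p = 0.0755), array 41 at 24 h (0.0548) and array 61 at 48 h (0.0515). Scg5 was lost at 24 h without control array 41 (0.0674) and at 72 h without control array 73 (0.0692) or 76 (0.104). Rab3a, the Rab3 of neurons and endocrine cells, fell by 0.46 at 72 h (adjusted p = 2.20e-07). Snap25 moved by −0.77 at 48 h (adjusted p = 0.0759) and passed without control array 62 (−1.07, adjusted p = 0.00979). Of the neuronal markers 4 of 6 were lower at 8 h (median −0.76) and 4 of 7 at 48 h (median −0.69), but 0 of 6 at 24 h (median −0.02) and 1 of 4 at 28 h (median −0.04). Of all genes, 35.5% were lower at 8 h, 33% at 48 h and 34.4% at 24 and 28 h. Their summed intensity at 8 h was 257.1 to 1012.2 in controls and 166.4 to 207.7 with EE, with Elavl4 at 0 arrays. The part of nerve fibres in these falls was not tested.

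Outside the members, Golgi SNAREs and coats were counted in the uterus. Of 28 tested 0 passed at 2 h, and 11 rose and 1 fell at 4 h. Of 27 tested 20 rose and 1 fell at 24 h (18 and 1 with quantile normalization), and 15 rose and 7 fell at 72 h. The backgrounds of rises were 23.6%, 24.8% and 23.4% at 4, 24 and 72 h. Sec13, a subunit of the COPII coat, rose by up to 1.51 at 28 h (adjusted p = 3.14e-21). Granule enzymes went both ways, with Cpe (carboxypeptidase E) and Pam (peptide amidating enzyme) falling by 2.21 and 1.70 at 28 h (adjusted p = 5.97e-26 and 5.37e-25). Qpct, which forms pyroglutamate at peptide ends, rose by 1.46 at 48 h (adjusted p = 1.09e-17). Of 5 exocyst subunits 1, 1, 2, 1, 1 and 2 rose and 0, 2, 1, 2, 1 and 1 fell at 4, 8, 24, 28, 48 and 72 h. At these times 23.4% to 28.7% of all genes were higher and 33% to 36.8% lower.

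Of the members that passed in the pituitary, 3 could be read in the uterus at the same hour. Rab3d rose in both at 72 h, by 0.77 and 1.31, and the pituitary effect was smaller by 0.54 (adjusted p = 0.0183). Stxbp6 fell in both at 4 h, by 0.41 and 0.71, and the effects differed by 0.29 (adjusted p = 0.0298). Pcsk6 rose in both at 4 h, by 0.59 and 0.29, a difference of 0.30 that did not pass (adjusted p = 0.152). Chga and Rab3b had no uterus values, and Sytl4, Syt4, Syt6 and Rab38 too few at the hour concerned.

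Over all members tested in both tissues, the EE effect differed in 18 of 65 at 4 h (background 33.8%), 31 of 63 at 8 h (background 48%), 18 of 66 at 24 h (background 40.1%), 17 of 65 at 48 h (background 36.4%) and 21 of 62 at 72 h (background 38.6%). At 48 h 6 of the 17 effects were higher in pituitary and 11 lower. That split was 3 and 11 with centred arrays and 9 and 6 with quantile normalization. With arrays of the same number taken as a replicate block the counts were 8 at 48 h and 13 at 72 h. The widest differences belonged to members that moved in the uterus and stayed near 0 in the pituitary. Stx7 at 8 h moved by 0.13 in pituitary and −0.91 in uterus, a difference of 1.03 (adjusted p = 7.68e-14). Rab5if at 8 h moved by −0.07 and 1.02, a difference of −1.09 (adjusted p = 2.48e-12). Rab25 at 72 h moved by 0.06 and 1.21, a difference of −1.15 (adjusted p = 2.11e-10). The EE effect changed over time in 37 of 60 uterus members, against 81.6% of all genes, with the smallest adjusted p for Rab3d (3.35e-23).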

How the data were processed

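The authors deposited 1 linear intensity per probe set and array, read on Affymetrix RAE230A arrays from 5 µg of total RNA labelled with biotin, per the labels' protocols. How the authors summarised and scaled them, and why cells are blank (37.2%), is not given in the sources used here. Array medians span a narrow range, but in the uterus they were lower with EE at some times. At 24 h they were 95.39 to 98.62 with EE and 99.99 to 105.1 in controls. At 72 h they were 94.58 to 100.8 with EE and 101.5 to 103.9 in controls. The part of this offset in the uterus results was not tested. Columns of other samples numbered 0.

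Members and gene lists were chosen with earlier results of these data known. Each gene used its single-gene probe set of highest mean over all arrays. Values became log2(value + 30.4), where 30.4 is the 10th percentile. Blanks were left out. Testing needed 2 or more of 3 values in every pituitary group compared, or 3 or more of 5 in every uterus group, a limit chosen once the blanks were known. Linear models of group means were fitted per tissue over all groups, with variances moderated by limma 3.58.1 in R 4.3.3, and over all 100 arrays for differences between tissues. Tests were two-sided, adjusted by Benjamini-Hochberg over all genes tested, passing under 0.05. Effects over times used an F test. The fit was tested on simulated data. Named members were, per comparison, the largest passing differences in each direction, with Chga, Chgb, Scg2, Scg3, Scg5, Pcsk1n, Pcsk2, Snap25, Syt4, Vamp2, Rab3a, Rab3b, Rab3d and Rab27a always named. The text gives a part of these, and the members following a course over times were named after their values were seen. Alternatives were a pseudocount of 1 or 100, median centring, quantile normalization, genes valued on every array, only the 2 groups compared, every probe set fitted on its own, each array left out, and a replicate block. Promoters came from RefSeq (GRCr8).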

Additional observations from a re-analysis of the deposited data

Results flagged for a closer look

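In 8 of 183 uterus groups of named members, 1 array lay far from the other arrays, where chance flags about 1 group in 20. For Stxbp6 at 4 h EE array 24 read 87.22, beside 78.74 for the nearest. For Rab3d at 4 h control array 17 read 106.8, beside 123.8. Scg3 read 5.192 on EE array 20 at 4 h, beside 16.85, and 31.72 on control array 25 at 8 h, beside 21.09. Rab3a read 30.2 on control array 27 at 8 h, beside 24.95, and Scg5 read 26.8 on EE array 47 at 24 h, beside 22.3. Rab2b read 207.8 on control array 51 at 28 h, beside 190.4, and Rab40c read 37 on EE array 68 at 48 h, beside 45.59.

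The EE effect differed between tissues by the interaction test in these members, given as the log2 effect in pituitary minus that in uterus. At 4 h it was 0.83 for Stxbp3, −0.84 for Rab5if, 0.54 for Rab31 and 0.48 for Stx7. At 8 h it was 1.03 for Stx7, −1.09 for Rab5if, 0.62 for Rab31 and 0.80 for Stxbp3. At 24 h it was −0.68 for Rab2a, −0.70 for Rab11a, 0.72 for Stxbp3 and −0.85 for Rab25. At 48 h it was −1.13 for Rab25, −0.85 for Rab11a, 0.76 for Stx16 and −0.80 for Rab3d. At 72 h it was −1.03 for Rab11a, −1.15 for Rab25, 0.73 for Rab33b and −0.53 for Vamp7. The other probe set of Rab11a did not follow the one used.

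The uterus effect differed between times for Rab3d (adjusted p = 3.35e-23), Rab31 (1.89e-16), Vamp7 (3.10e-16), Rab13 (5.60e-15), Stxbp3 (6.13e-15) and Rab25 (3.85e-13), all by limma's F test.

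Scgb1a1, a secretoglobin that matches the letters of the name rule but was valued on too few arrays to be a member, had values on all 5 EE uterus arrays at 24, 28, 48 and 72 h, with medians of 71.98, 75.11, 127.1 and 94.64. It was blank on all 35 control uterus arrays.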

How the results depend on the processing

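On the probe set used for each gene, no named call changed direction under the alternatives run. With every probe set fitted on its own, 4 values of other probe sets passed the opposite way (2 of Rab14 and 2 of Rab7a). Of 3804 values of named genes under the alternatives, 3716 stayed on their side of the threshold, 80 lost it and 8 gained it. Fitting only the 2 groups compared left 1 pituitary member at 4 h, 0 at 8 h and 1 at 48 h, and 1 uterus member at 2 h. A pseudocount of 100 gave 1 pituitary member at 24 h (Syt4) and 1 at 48 h (Chga), and genes valued on every array gave 1 at 48 h. Centred arrays gave 2 uterus members at 2 h. The count of pituitary members whose effect differed between times was 1 with a pseudocount of 1, centred arrays, quantile normalization or genes valued on every array. The cause of these changes was not tested. Leaving out 1 array at a time gave 2 to 4, 0 to 4, 0 to 0, 0 to 1 and 0 to 4 pituitary members at 4, 8, 24, 48 and 72 h. In the uterus it gave 1 to 6 at 2 h, 26 to 31 at 4 h, 35 to 40 at 8 h, 26 to 31 at 24 h, 25 to 31 at 28 h, 29 to 37 at 48 h and 29 to 35 at 72 h. For the tissue difference it gave 12 to 19, 26 to 31, 14 to 19, 14 to 18 and 16 to 21 at 4, 8, 24, 48 and 72 h, for the difference between times 0 to 2 in pituitary and 36 to 38 in uterus, and for the control level 49 to 53.

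The labels do not say what an array number marks. No number occurs more than once within a tissue, and all 27 found in both tissues fall in the same treatment and time, so they may be animal numbers. Over 4881 genes, the paired deviations correlated at −0.065 to 0.162 (median 0.071, 8 of 27 over 0.1), which left the pairing unsettled. With the replicate block the tissue difference passed in 12 members at 4 h, 24 at 8 h, 14 at 24 h, 8 at 48 h and 13 at 72 h, and the control level in 48.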

Other observations

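Secretoglobins are small secreted proteins of airway and uterine epithelium, unrelated to granins. The uterus EE arrays gave Scgb1a1 intensities of 50.16 to 134.8 at 24 h, 50.15 to 105.3 at 28 h, 45.95 to 186.4 at 48 h and 66.35 to 116.8 at 72 h, and 1 value of 21.54 at 8 h. No fold can be given against blank controls. Rab4b, a GTPase of endosome recycling that was also valued on too few arrays to be a member, had a value on 22 of 35 EE uterus arrays and 5 of 35 control arrays.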
